A study of Homo sapiens with 16 samples.

Results

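Homologous recombination and Fanconi anaemia genes were followed in SUM225 cells during inhibition of HER2. The 9 genes were BRCA1, BRCA2, BARD1, BRIP1, RAD54L, BLM, FANCA, FANCD2 and FANCG, and every probe that carried one of these symbols was taken, which gave 15 of the 24526 probes on the array and 9 of its 18631 gene symbols. SUM225 is a human breast cancer line in which the HER2 gene is amplified and over expressed. The cells were grown, according to the labels, in Ham's F-12 with 5% fetal bovine serum, 5 µg/ml insulin and 1 µg/ml hydrocortisone, whereas the methods of the study describe a serum-free medium without insulin for this line. All cultures of the series received 1 µM CP724,714, a small molecule inhibitor of the HER2 kinase, and RNA was taken from a separate parallel culture at each 3 h step up to 45 h. Each of the 16 time points was measured on 1 Illumina bead array, so that no time point had a replicate, and no untreated time course was analysed here.

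Homologous recombination repairs a broken chromosome by copying the sister chromatid, and it therefore works in S and G2 phase. BRCA1 and its partner BARD1 form a ubiquitin ligase that promotes resection of the broken end, BRIP1 is a helicase that binds BRCA1, BRCA2 acts on the resected strand, RAD54L drives the strand invasion that follows, and BLM unwinds recombination intermediates. In the Fanconi pathway a core complex that contains FANCA and FANCG directs ubiquitination of FANCD2 at DNA crosslinks and stalled forks, after which the break is repaired by homologous recombination.

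Luminal markers were present throughout, since KRT8, KRT18, KRT19, EPCAM, CDH1, ERBB2 and MUC1 (7 of 7) were detected on all 16 arrays. Their levels were not all constant, since MUC1 ranged from 14.32 to 15.86, KRT18 from 9.54 to 10.71 and EPCAM from 8.38 to 9.49 log2 units, while KRT19 and ERBB2 lay between 16.02 and 16.13, near the top of the scale. Of the markers of other cells, KRT5 (basal), CD14 and CD68 (leukocyte) and PECAM1 (endothelial) were detected on all 16 arrays, VWF on 13, the fibroblast genes COL1A1 and COL1A2 on 5 each, KRT14 on 3, CD3D and CDH5 on 1 each, and TP63, COL3A1, PDGFRB, DCN and PTPRC on 0. The median signal intensity of the arrays ranged from 242 to 384, and between 57.5% and 61.5% of probes had a detection p-value under 0.05, which is called detected here. Precision is limited by the number of arrays. Values below are background-corrected, quantile-normalized log2 intensities, which can be compared between arrays for one probe but not between probes.

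The promoters of 6 of the genes are shown, of which 5 (BRCA1, RAD54L, BLM, FANCA and FANCD2) had the largest falls in signal. The linear change of the sixth, BRIP1, did not pass the threshold. Its probe was detected on 5 of the 16 arrays, and its linear change was -0.73 without the 45 h array. The sequences are those of RefSeq on GRCh38.p14, from 180 bases before the annotated transcription start to 10 bases after it. They lie at chr17:43125355-43125544 (BRCA1, minus strand), chr17:61863519-61863708 (BRIP1, minus strand), chr1:46247508-46247697 (RAD54L, plus strand), chr15:90717166-90717355 (BLM, plus strand), chr16:89816638-89816827 (FANCA, minus strand) and chr3:10026257-10026446 (FANCD2, plus strand). Each is written 5′ to 3′ in the direction of transcription, with capitals marking a CCAAT box (CCAAT or, on the other strand, ATTGG) and an E2F motif.
BRCA1: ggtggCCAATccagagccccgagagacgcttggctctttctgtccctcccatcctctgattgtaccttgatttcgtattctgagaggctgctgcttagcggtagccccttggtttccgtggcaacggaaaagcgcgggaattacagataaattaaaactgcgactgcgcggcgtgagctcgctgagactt
BRIP1: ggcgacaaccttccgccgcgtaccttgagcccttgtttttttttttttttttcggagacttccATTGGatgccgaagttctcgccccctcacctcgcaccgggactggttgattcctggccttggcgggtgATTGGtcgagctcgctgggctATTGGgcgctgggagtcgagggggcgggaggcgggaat
RAD54L: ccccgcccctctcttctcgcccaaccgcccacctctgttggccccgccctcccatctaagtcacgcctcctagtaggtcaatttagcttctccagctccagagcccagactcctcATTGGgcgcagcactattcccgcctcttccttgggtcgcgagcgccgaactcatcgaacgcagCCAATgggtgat
BLM: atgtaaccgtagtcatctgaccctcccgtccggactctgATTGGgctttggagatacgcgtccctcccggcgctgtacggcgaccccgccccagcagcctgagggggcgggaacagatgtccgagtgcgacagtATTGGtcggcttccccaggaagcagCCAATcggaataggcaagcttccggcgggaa
FANCA: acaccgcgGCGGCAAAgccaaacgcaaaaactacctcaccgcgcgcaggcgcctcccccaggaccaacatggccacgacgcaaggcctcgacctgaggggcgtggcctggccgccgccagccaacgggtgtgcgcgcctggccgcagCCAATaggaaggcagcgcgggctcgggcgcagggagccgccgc
FANCD2: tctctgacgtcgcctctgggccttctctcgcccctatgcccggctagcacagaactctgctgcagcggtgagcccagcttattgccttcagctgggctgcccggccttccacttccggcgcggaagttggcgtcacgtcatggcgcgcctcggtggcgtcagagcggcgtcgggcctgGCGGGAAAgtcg
The windows searched ran from 250 bases before to 50 bases after the start, on both strands. The E2F motif was counted as TTTCCCGC, TTTCGCGC, TTTGCCGC or TTTGGCGC, and it was found in the windows of 2 of the 9 genes, FANCA and FANCD2, and in 3.3% of the 35097 promoters of the table. A CCAAT box was found in 5 of the 9 genes (BRCA1, BRIP1, RAD54L, BLM and FANCA) and in 34.6% of all promoters. An Sp1 GC box, GGGCGG, was found in 8 of the 9 genes, all but BRCA2, and in 44.9% of all promoters. The cell cycle homology region (TTTGAA or TTCGAA) was found in 1 gene, BRIP1, and in 16.4% of all promoters. BRCA1 and RAD54L have 2 annotated windows each, and a gene was counted where either window held the motif, whereas the shares of all promoters are per window. In BRCA1 the GC boxes lay in the window of the upstream start alone and the CCAAT box in that of the downstream start alone. The sequence shown is that of the downstream start for BRCA1 and of the upstream start for RAD54L. BRIP1 had 3 CCAAT boxes, as many as BLM. These matches describe letters in the windows, and no binding was measured.

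The signal of 7 of the 9 genes fell during 45 h of inhibitor treatment. Probes had to be detected on at least 3 arrays to be tested, and 13 of the 15 probes (8 genes) passed. A linear fall was found for 11 of these 13 probes in limma (adjusted p under 0.05), against 21.7% of all 16110 probes tested. A linear rise was found for 0 of 13, also at an unadjusted p under 0.05, where 26.0% of all probes rose. The signal of 12 of the 13 probes depended on time in the F-test of a cubic course, against 51.3% of all probes. The median linear change was -1.51 log2 units over the 13 probes and 0.05 over all probes tested. Of the 13 probes, 8 were detected on all 16 arrays, and the probes detected on fewer arrays passed the filter through the arrays on which they were bright. Of the 11 falling probes, 1 (FANCA ILMN_1799224) passed it through the arrays at 0, 3, 6 and 12 h alone, which favours a fall.

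**Figure D1:**
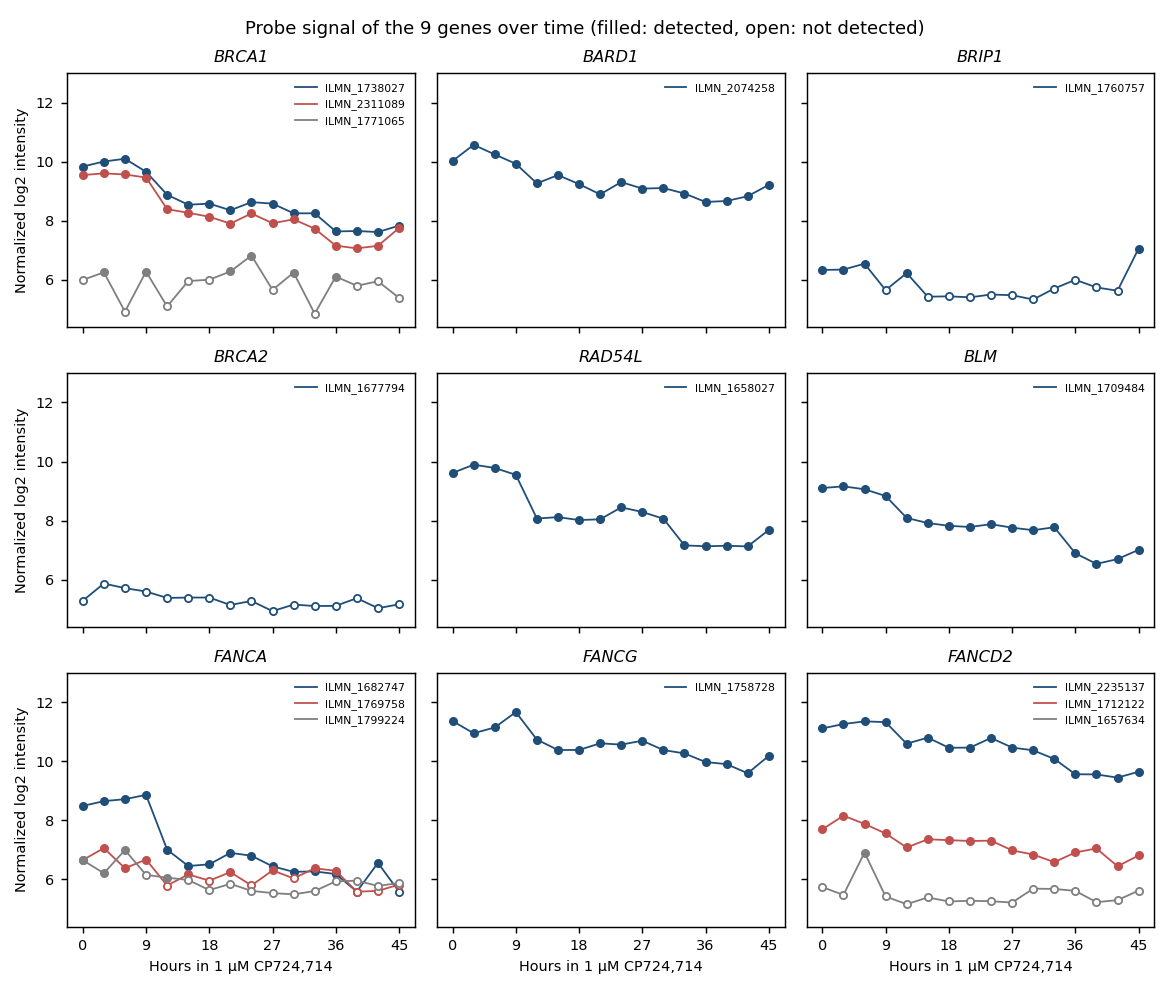
Normalized log2 intensity (y axis) of the 15 probes of the 9 genes against hours in 1 µM CP724,714 (x axis), 1 point per array, with filled points detected and open points not detected. The probes detected on all 16 arrays stepped down after 9 h, whereas the BRCA2 probe was detected on 0 arrays and the BRIP1 probe had its highest value, 7.06, at 45 h.

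BRCA1 was represented by 3 probes, of which 2 fell, with linear changes within 1 SE of each other. For ILMN_1738027 the log2 intensity was 9.84 at 0 h, between 9.66 and 10.10 from 3 to 9 h, between 8.36 and 8.88 from 12 to 21 h, between 8.26 and 8.63 from 24 to 33 h, and between 7.62 and 7.84 from 36 to 45 h. The 4 last arrays lay below every earlier array. ILMN_2311089 ran from 9.55 at 0 h through 9.47 at 9 h and 8.40 at 12 h to its lowest value, 7.07, at 39 h, and was 7.76 at 45 h. The linear change over 45 h was -2.46 ± 0.22 (SE) for the first probe (adjusted p = 2.14e-08, limma) and -2.50 ± 0.24 for the second (adjusted p = 5.95e-08). Between 0 h and 45 h these probes fell 4.0-fold and 3.47-fold, and their values correlated across the 16 arrays with r = 0.98. Folds here and below compare single arrays, those at 0 h and 45 h, and were not tested. The third probe, ILMN_1771065, was detected on 6 arrays, ran between 4.86 and 6.83 without an order in time, and had a linear change of -0.13 ± 0.41 (adjusted p = 0.827). It correlated with the other BRCA1 probes with r = -0.03 and 0.02. The table gives no probe sequences, so that which transcripts or related loci each probe matches was not examined.

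BARD1, the partner of BRCA1 in the ubiquitin ligase, was highest at 3 h and fell over the course, with a linear change smaller in size than that of the bright BRCA1 probes. Its log2 intensity was 10.03 at 0 h and 10.58 at 3 h, the highest of the course, 9.93 at 9 h, between 8.90 and 9.55 from 12 to 21 h, between 8.93 and 9.31 from 24 to 33 h, and between 8.64 and 9.22 from 36 to 45 h. The linear change was -1.51 ± 0.19 (adjusted p = 1.94e-06). The course of BARD1 was called curved (adjusted p = 0.0459, F-test of the quadratic and cubic terms), but narrowly. Such a call was made for 2 of the 13 tested probes, which is not above the 19.3% of all probes. Without the 45 h array it was made for 0 of them. After its minimum of 8.64 at 36 h BARD1 stood at 9.22 at 45 h, 1.76-fold below its signal at 0 h.

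BRIP1 had the other curved call (adjusted p = 0.00797, same F-test). Its probe was detected on 5 arrays, those at 0, 3, 6, 12 and 45 h. It measured between 6.23 and 6.55 on the first 4 of these and 7.06 at 45 h, and between 5.34 and 6.00 on the 11 arrays on which it was not detected. BRIP1 was time-dependent (adjusted p = 0.00431), but its linear change was -0.18 ± 0.27 (adjusted p = 0.615). This rested on the last array, since without it the linear change was -0.73 (adjusted p = 0.0343) and 0 probes had a curved course in limma, with 3 at an unadjusted p under 0.05. In the fit of array weights, in which arrays that scatter more around the fitted courses weigh less, the arrays at 45 h and 0 h had the lowest weights of the 16 (0.270 and 0.297). The folds between 0 h and 45 h given for the other genes rest on these same arrays. Without the 0 h array the linear change of BRIP1 was -0.016 (adjusted p = 0.972), and with array weights it was -0.56 (adjusted p = 0.0858).

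BRCA2 had 1 probe, and it was detected on 0 of the 16 arrays. Its values lay between 4.93 and 5.87, so that its course could not be measured and no test or fold is given. RAD54L, a DNA translocase, was measured on all arrays. Its log2 intensity was 9.61 at 0 h, between 9.55 and 9.89 from 3 to 9 h, and between 8.02 and 8.12 from 12 to 21 h. It then stood between 8.06 and 8.45 from 24 to 30 h, between 7.12 and 7.16 from 33 to 42 h, and at 7.68 at 45 h. RAD54L therefore stepped down on 2 occasions, between 9 h and 12 h (a change of -1.48) and between 30 h and 33 h. Its linear change was -2.67 ± 0.32 (adjusted p = 9.7e-07), and the signal at 45 h was 3.81-fold below that at 0 h.

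BLM, a helicase of the RecQ family, decreased after 9 h and after 33 h, as the bright BRCA1 probes did. Its log2 intensity was 9.10 at 0 h, between 8.83 and 9.16 from 3 to 9 h, between 7.78 and 8.09 from 12 to 21 h, between 7.67 and 7.88 from 24 to 33 h, and between 6.53 and 7.01 from 36 to 45 h. The 4 last arrays lay below all earlier ones. The largest decrease of BLM fell between 33 h and 36 h and was -0.88, slightly more than the -0.74 between 9 h and 12 h. Its linear change was -2.48 ± 0.23 (adjusted p = 3.8e-08), a fall of 4.27-fold between 0 h and 45 h.

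FANCA, a subunit of the Fanconi core complex, had 3 probes, all of which passed the test for a linear fall. The brightest, ILMN_1682747, went from 8.48 at 0 h to 8.86 at 9 h and measured 7.0 at 12 h. It stayed between 6.45 and 6.90 from 15 to 21 h and between 6.25 and 6.80 from 24 to 33 h, and was not detected at 39 h and 45 h (5.58 on both). Its linear change was -2.99 ± 0.37 (adjusted p = 1.62e-06), and -1.43 (adjusted p = 3.31e-06) without background correction, where RAD54L had a larger one (-1.76). Set against the lowest detected probe of the 45 h array, FANCA was at least 4.73-fold lower at 45 h than at 0 h. The dimmer probes, detected on 9 and 4 arrays, had linear changes of -0.87 ± 0.25 (ILMN_1769758, adjusted p = 0.00688) and -0.81 ± 0.23 (ILMN_1799224, adjusted p = 0.00606). ILMN_1799224 was detected only at 0, 3, 6 and 12 h, so it passed the filter through early arrays. The filter thereby favoured a fall, and this probe is no separate support for the fall of FANCA. Differences near background are compressed by the offset used in normalization, and sizes of change are therefore not comparable between bright and dim probes.

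FANCG, the other core complex subunit, was bright on all arrays. Its log2 intensity was 11.36 at 0 h, 10.95 at 3 h and 11.66 at 9 h, between 10.38 and 10.73 from 12 to 21 h, between 10.26 and 10.69 from 24 to 33 h, and between 9.59 and 10.18 from 36 to 45 h. The last 4 arrays were the lowest of the course. The linear change was -1.47 ± 0.22 (adjusted p = 1.3e-05), and FANCG was 2.26-fold lower at 45 h than at 0 h.

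FANCD2, the substrate of the core complex, had a bright and a dimmer probe that both fell. ILMN_2235137 was 11.11 at 0 h, between 11.26 and 11.35 from 3 to 9 h, between 10.45 and 10.80 from 12 to 21 h, between 10.08 and 10.79 from 24 to 33 h, and between 9.44 and 9.64 from 36 to 45 h. The linear change was -1.91 ± 0.18 (adjusted p = 3.9e-08), or 2.77-fold between 0 h and 45 h. ILMN_1712122 ran from 7.69 at 0 h and 8.16 at 3 h to 6.44 at 42 h and 6.81 at 45 h, with a linear change of -1.27 ± 0.20 (adjusted p = 2.56e-05), and its values correlated with those of the bright probe with r = 0.85 across the 16 arrays. The remaining probe, ILMN_1657634, was detected on 1 array, that at 6 h, and was not tested.

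**Figure D2:**
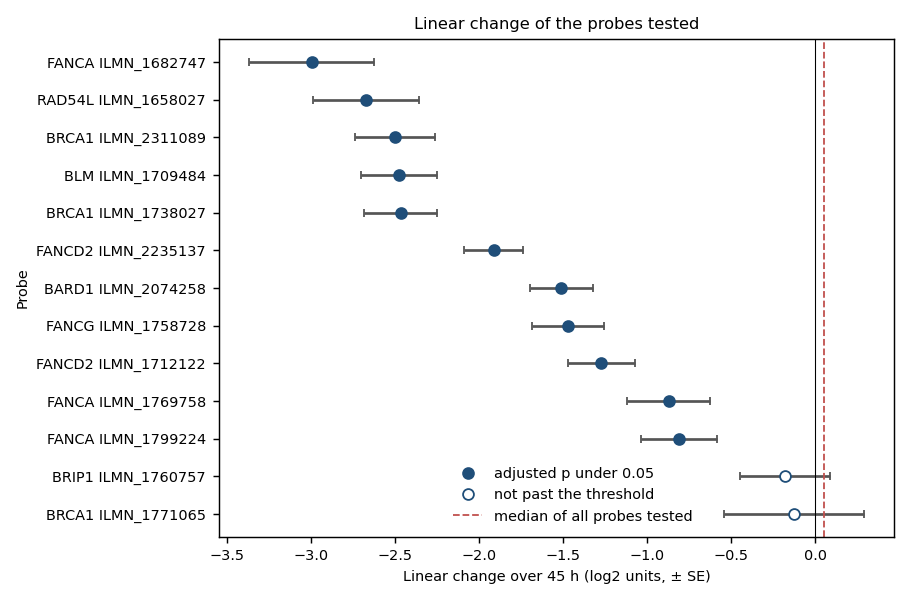
Linear change over 45 h in log2 units (x axis, points, with bars of ± 1 SE from limma) of the 13 probes tested (y axis). The 11 filled points, from -2.99 for FANCA to -0.81 for its dimmest probe, passed the threshold, and the open points, BRIP1 and the dimmest BRCA1 probe, did not; the dashed line at 0.05 is the median of all probes tested.

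The timing of the falls was described with windows of arrays. Means of adjacent windows of arrays (3-9 h, 12-21 h, 24-33 h, 36-45 h) were compared in limma, with the 0 h array as a level of its own. Arrays within a window are not replicates, and their spread contains the course within it. The windows have the same borders, after 9 h, 21 h and 33 h, as the sets of arrays described below. A difference between windows and a difference between sets therefore cannot be told apart. From 3 to 9 h to 12 to 21 h, 10 of the 13 probes were lower, against 12.9% of all probes. The difference was -2.03 ± 0.23 (SE) for FANCA, -1.68 ± 0.22 for RAD54L, -1.33 ± 0.15 and -1.37 ± 0.17 for the bright BRCA1 probes, -1.11 ± 0.14 for BLM, -1.01 ± 0.17 for BARD1 and -0.73 for both FANCG (SE 0.16) and the bright FANCD2 probe (SE 0.13). From 12 to 21 h to 24 to 33 h, 0 of the 13 probes passed the limma test for a lower level, also at an unadjusted p under 0.05, against 4.11% of all probes, and their differences ranged from -0.34 to 0.09. From 24 to 33 h to 36 to 45 h, 5 probes were lower, against 3.11% of all probes: BLM by -0.99 ± 0.13, FANCD2 by -0.87 ± 0.12, the BRCA1 probes by -0.74 ± 0.13 and -0.70 ± 0.15, and FANCG by -0.56 ± 0.15. RAD54L (-0.72 ± 0.21, adjusted p = 0.057) and FANCA (-0.47 ± 0.21, adjusted p = 0.294) did not pass in that last comparison. Without the 24 h array 3 probes passed it.

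At the level of adjacent arrays, the interval from 9 h to 12 h stood out. In that interval 10 of the 13 probes decreased by 0.5 log2 units or more, as did 9.58% of all probes tested. The change was -1.86 for FANCA, -1.48 for RAD54L, -0.78 and -1.07 for the bright BRCA1 probes, -0.93 for FANCG, -0.74 for BLM, -0.73 for FANCD2 and -0.66 for BARD1. BRIP1 was the 1 probe of 13 that was higher at 12 h than at 9 h, by 0.58. Between 33 h and 36 h 4 of the 13 probes decreased by 0.5 or more (both bright BRCA1 probes, BLM and FANCD2), against 5.93% of all probes. The first and the last intervals ran the other way, since 11 of 13 probes were higher at 3 h than at 0 h (52.3% of all probes) and 11 of 13 were higher at 45 h than at 42 h (51.4% of all probes). In the first interval BARD1 was higher by 0.55, the dimmer FANCD2 probe by 0.46 and RAD54L by 0.28. In the last one BRIP1 was higher by 1.43, the second BRCA1 probe by 0.60, FANCG by 0.59 and RAD54L by 0.56, while the brightest FANCA probe, not detected at 45 h, had a change of -0.98 and the third BRCA1 probe one of -0.56. These are differences between single arrays and were not tested.

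**Figure D3:**
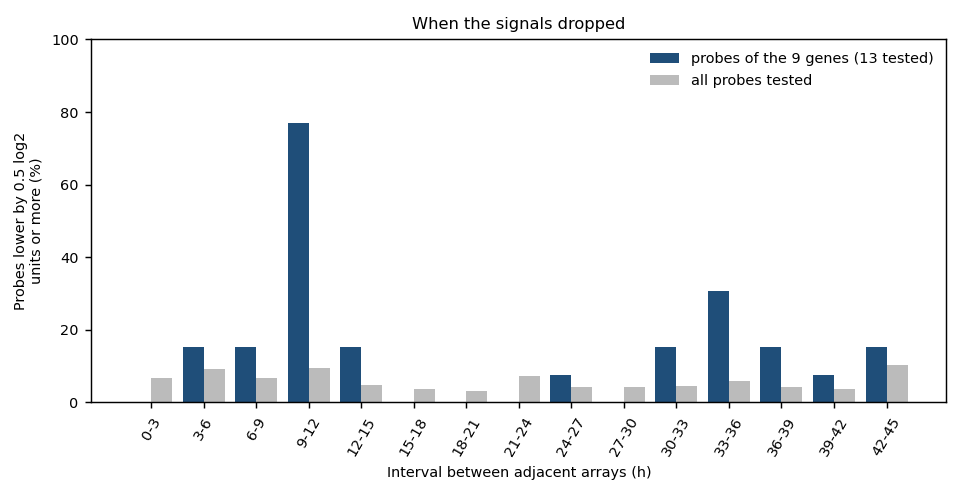
Share of probes whose log2 intensity decreased by 0.5 or more (y axis, percent) in each interval between adjacent arrays (x axis, hours), for the 13 tested probes of the 9 genes (dark bars) and for all 16110 probes tested (grey bars). The interval from 9 h to 12 h holds 10 of the 13 probes against 9.58% of all probes, and no other interval holds more than 4.

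The steps after 9 h, and those of BRCA1, BLM and FANCD2 after 33 h, lay at borders between groups of 4 arrays in sequence (borders after 9 h, 21 h and 33 h), and these sets were noticed in the data. The later step of RAD54L, between 30 h and 33 h, lay within a set. At the border after 21 h, 0 of the 13 probes decreased by 0.5 or more, against 7.21% of all probes. Of the 13 probes 9 were higher there, against 48.7% of all probes. The labels name no batch, and a step in expression at 12 h or 36 h and a difference between sets cannot be told apart. In a limma fit with a separate level for each set and 1 common slope in hours, 0 of the 13 probes had a linear change past the threshold, and 0 did at an unadjusted p under 0.05, while 0.478% of all probes fell and 0.422% rose in this fit. The loss of calls was therefore general on the arrays. Within sets the slope, scaled to 45 h, was below 0 for 12 of the 13 probes, with a median of -0.68, against 0.03 over all probes. The share of all probes with a slope below 0 was not counted. Some of the 13 probes share a gene and all share the same arrays, so this count is a description only. A set spans 9 h, and the median SE of this fit was 0.80, against 0.23 without the set.

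The genes shared their course closely apart from BRIP1. Across the 16 arrays, with the brightest probe of each gene, BRCA1 was most like BLM (r = 0.98), RAD54L most like BRCA1 (r = 0.97), FANCD2 most like BLM (r = 0.96), BARD1 most like RAD54L (r = 0.95), FANCA most like BRCA1 (r = 0.93) and FANCG most like BLM (r = 0.91). BRIP1, whose probe was detected on 5 of the 16 arrays, reached r = 0.42 with BARD1 at best and 0.05 with FANCD2. All of these values share the same arrays and a trend in time, and they are given as a description. The mean centred course of the 8 measured genes started from 0.99 at 0 h, peaked at 6 h with 1.12 and was still 0.94 at 9 h, then 0.11 at 12 h and -0.19 at 21 h. It ended with -0.44 at 33 h, a minimum of -0.90 at 39 h and -0.47 at 45 h.

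Outside the 9 genes, 398 of 13100 genes had a correlation over 0.9 with this mean course. The 10 most alike were KDELC2 (r = 0.99), FLJ20647, EXO1, UBE2T, E2F2, RNASEH2A, C1orf112, Pfs2, MNS1 and ATAD2 (r = 0.99). EXO1, the exonuclease that extends resection, ran from 11.86 at 0 h and 11.44 at 9 h to 10.02 at 12 h and, after 9.06 at 33 h, to 8.21 at 36 h, with 8.57 on the last array. UBE2T, the ubiquitin-conjugating enzyme that acts on FANCD2, ran from 12.89 at 0 h and 12.65 at 9 h to 11.52 at 12 h and, after 10.89 at 33 h, to 10.19 at 36 h, with 10.24 on the last array. Both had steps in the same intervals as BRCA1 and BLM. This is no separate result, since both were picked for likeness to a course that holds these steps. E2F2 is a transcription factor of the cell cycle, with a linear change of -1.98 ± 0.20. RNASEH2A (-2.30 ± 0.20) removes RNA from DNA, and Pfs2, the older name of the replication factor GINS2, fell by 3.98 on the log2 scale (SE 0.24).

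The other genes of both pathways moved in both directions, where 21.7% of all probes tested fell and 26.0% rose. Of 29 further homologous recombination genes, 25 were tested with their brightest probe, 14 fell, 3 rose and 8 did not pass the threshold, with a median linear change of -0.54. The falls were largest for EXO1 (-3.68 ± 0.29), RAD51AP1 (-2.61 ± 0.26), XRCC3 (-2.12 ± 0.15), RAD54B (-2.10 ± 0.16) and RAD51D (-1.70 ± 0.20). EME1 (-1.27), RBBP8 (-1.0), DNA2 (-0.98), TOP3A (-0.97) and RAD51C (-0.92) fell by about 1 log2 unit. MRE11 (-0.65), RMI1 (-0.64), RECQL (-0.54) and BABAM1 (-0.22) fell by less. Further probes of MRE11 (-0.20, adjusted p = 0.253, limma) and BABAM1 (-0.10, adjusted p = 0.427) did not pass. NBN (0.55 ± 0.12) and RAD50 (0.30 ± 0.12), partners of MRE11 in the complex that senses broken ends, rose, as did BRCC3 (0.28 ± 0.11), a deubiquitinase found with BRCA1. The rises of RAD50 (adjusted p = 0.0408, limma) and BRCC3 (adjusted p = 0.0467) passed narrowly. Neither gene was time-dependent in the F-test of the cubic course (adjusted p = 0.131 and 0.11). XRCC2 and WRN had values of -0.35 ± 0.21 and -0.29 ± 0.15 and did not pass.

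Of 19 further Fanconi pathway genes 18 were tested, of which 10 fell, 2 rose and 6 did not pass, with a median of -0.47. UBE2T (-2.96 ± 0.26) and FANCI, which pairs with FANCD2 (-2.74 ± 0.19), fell most. FANCI ran from 9.75 at 0 h and 9.77 at 9 h to 8.90 at 12 h and, after 8.08 at 33 h, to 7.53 at 36 h, with 7.21 on the last array. FAAP24 (-1.40), CENPS (-1.37), FANCC (-1.15), CENPX (-0.85), FANCE (-0.69), FANCB (-0.64), USP1 (-0.54) and FAAP20 (-0.40) followed. FANCC, FANCE and FANCB belong to the core complex with FANCA and FANCG, and USP1 removes ubiquitin from FANCD2. FAN1, a nuclease recruited by ubiquitinated FANCD2 (0.52 ± 0.14), and WDR48, the partner of USP1 (0.40 ± 0.12), rose. The linear changes of FANCF (0.21 ± 0.20), FANCM (0.08 ± 0.33) and SLX4 (-0.04 ± 0.17) did not pass the threshold. Of 16 further tested probes of genes in both lists, 8 gave the same call as the brightest probe and 0 gave a call in the opposite direction. Among those that differed were probes of RBBP8 (0.11, adjusted p = 0.766, limma) and FANCB (-0.36, adjusted p = 0.236), which did not pass. RAD51B, with 0.31 ± 0.15 on its brightest probe (adjusted p = 0.0866), rose on another probe (0.57, adjusted p = 0.0295) and fell on the remaining one (-0.96, adjusted p = 0.00421).

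**Figure D4:**
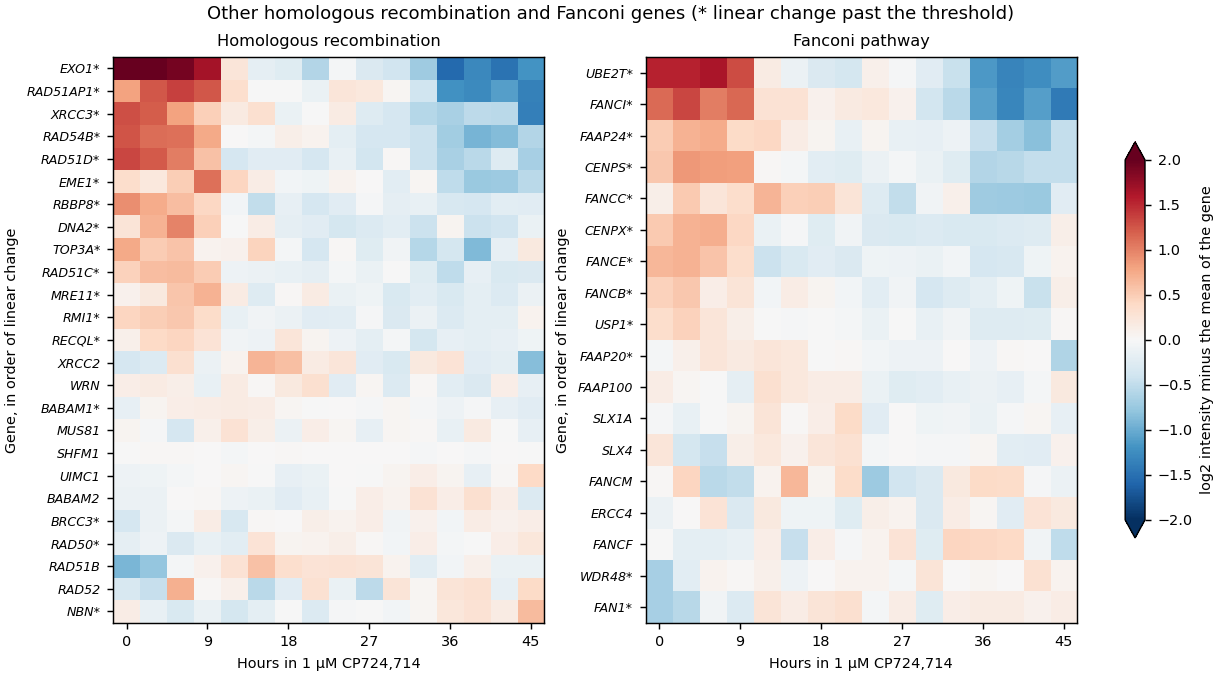
Log2 intensity minus the mean of each gene (colour, red above and blue below) for the brightest probe of 25 further homologous recombination genes and 18 further Fanconi pathway genes (y axes, in order of linear change) at the 16 time points (x axes, hours in 1 µM CP724,714), with an asterisk for a linear change past the threshold. EXO1 and UBE2T, at the top, fell most, and NBN and FAN1, at the bottom, rose.

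Other DNA repair and checkpoint genes are given for comparison, beside 21.7% of all probes tested that fell and 26.0% that rose. In checkpoint signalling 8 of 13 tested genes fell and 2 rose. CHEK1, the kinase downstream of ATR, had a linear change of -2.81 ± 0.20, TIMELESS -2.03 ± 0.17, CHEK2 -1.36 ± 0.14 and H2AFX -1.23 ± 0.19, whereas ATR (0.66 ± 0.15) and ATM (0.45 ± 0.17) rose. In non-homologous end joining, which repairs breaks without a template, 5 of 10 fell, led by PRKDC (-1.08 ± 0.18), XRCC5 (-0.69), NHEJ1 (-0.62) and XRCC6 (-0.54), and LIG4 (1.27 ± 0.28) and POLM (0.62 ± 0.17) rose. The probes of LIG4 and NHEJ1 were dim, detected on 8 and 10 of the 16 arrays. NHEJ1 passed narrowly (adjusted p = 0.041, limma) and was not time-dependent in the F-test (adjusted p = 0.084). A further probe of PRKDC did not pass (0.05, adjusted p = 0.905). In mismatch repair 3 of 5 fell, namely MSH6 (-1.15), MLH3 (-0.77) and PMS2 (-0.31). Further probes of MLH3 (-0.05, adjusted p = 0.895, limma) and PMS2 (0.07, adjusted p = 0.728) did not pass. Of 42 further tested probes in all lists, 27 gave the same call as the brightest probe and 0 gave an opposite one. In base excision repair 7 of 15 fell, with FEN1 (-2.37), NEIL2 (-1.35), UNG (-1.05) and XRCC1 (-0.72) in front. Other probes of UNG had linear changes of -2.23 (adjusted p = 2.12e-06, limma) and 0.55 (adjusted p = 0.266). In nucleotide excision repair 2 of 17 fell (ERCC8 -0.67 and CETN2 -0.31) and 4 rose, with XPC (0.90) and DDB2 (0.84), its damage sensors, changing most. ERCC1 did not pass on its brightest probe but fell on another (-0.84, adjusted p = 0.000991, limma). The medians, over the brightest probe of each gene, were -0.74 for checkpoint genes, -0.34 for end joining, -0.31 for mismatch repair, -0.19 for base excision repair and 0.015 for nucleotide excision repair. The -1.51 given above for the 9 genes is a median over all 13 tested probes, dim ones included, and is a different measure. On the brightest probe of each tested gene, the linear changes were -2.99 (FANCA), -2.67 (RAD54L), -2.48 (BLM), -2.46 (BRCA1), -1.91 (FANCD2), -1.51 (BARD1), -1.47 (FANCG) and -0.18 (BRIP1).

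Genes of DNA replication and mitosis fell as well. All 20 of a list of 20 fell, with a median of -2.44, among them RRM2 (-4.36 ± 0.40), GINS2 (-3.98), MCM2 (-3.30) and CCNA2 (-3.19), and MKI67 fell by 1.62 (SE 0.25). Of these 20 genes 16 were lower at 12 to 21 h than at 3 to 9 h and 12 were lower at 36 to 45 h than at 24 to 33 h. The arrays measure the RNA of a whole culture, in which fewer cells that express a gene and less RNA per cell cannot be told apart, and the part of the share of cycling cells in the falls of BRCA1, RAD54L, BLM, FANCA, FANCD2 and FANCG was not tested.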

How the data were processed

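Gene expression was measured in 16 cultures of SUM225 cells, grouped by the hours in CP724,714 in their labels, with 1 array each. The authors deposited a table of linear signal intensity per probe without normalization, and the deposited table also holds a detection p-value for each of these intensities. The methods of the study name the Illumina human Ref8v2 array and quantile normalization for its inhibitor time courses, in a passage on MCF10A and derived lines, and the labels of these SUM225 samples name no version. The scanner and its software were not given in the sources used here. Values were background-corrected with detection p-values, given an offset of 16, quantile-normalized and log2-transformed (neqc, limma 3.58.1, R 4.3.3). Fold changes of dim probes are understated because of the offset.

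A cubic in hours (lmFit, eBayes with trend) was fitted to the 16110 probes detected (p under 0.05) on 3 or more arrays, and p-values were two-sided and adjusted by Benjamini-Hochberg over all of them. Errors came from deviations around the fitted course, or within windows, since no time point was repeated. The fit was tested on simulated data with independent noise. The simulation held no differences between sets of arrays, so it does not bear on them. Bounds for a probe not detected used the lowest detected value of that array.

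The genes, gene lists, windows and tests were chosen with earlier results of these data known. Named were all probes of the 9 genes, all homologous recombination and Fanconi genes past the threshold, the largest rise and 4 largest falls of each other list, and the 10 genes most alike. In a list, the probe with the highest mean stood for its gene, and older symbols of the table were matched through RefSeq. No probe matched PALB2, GEN1, RMI2, ABRAXAS1, ATRIP, TIPIN and TDG, and FANCL, HUS1 and NEIL3 were not tested. Some genes of these pathways are not reported here and were left out of the lists and their counts. Genes named beyond this rule, such as RAD51B, XRCC2, WRN, FANCF, FANCM, SLX4 and some replication genes, were chosen after their values were seen. Alternatives were no background correction, an offset of 50, median scaling, cyclic loess, other filters, array weights, other courses, a step between 21 h and 24 h, the 12 h set as a factor and each array left out. Plots used matplotlib 3.10.9 and Python 3.11.15.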

Additional observations from a re-analysis of the deposited data

How the results depend on the processing

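The count of 11 falling probes was 11 or 12 with any array left out. Of 196 recomputed counts 177 stayed within 1.5 times the reported count, and of 333 recomputed linear changes of a probe 316 kept sign and call, 13 no longer passed, 1 newly passed and 3 reversed. With the 12 h set as a factor in limma, 0 of 13 probes were time-dependent and 0 fell (0 at an unadjusted p under 0.05), while of all 16110 probes 77 fell, in place of 3495. There 1 other homologous recombination or Fanconi gene fell, in place of 24, and 0 genes of the other repair lists fell (6 of 60 at an unadjusted p under 0.05), in place of 25. In that fit FANCA ILMN_1769758 reversed to 0.23. With a step between 21 h and 24 h the repair lists had 12 falling genes, and the dimmer probes of FANCA and FANCD2 no longer passed, although the changes of ILMN_1769758 (-0.85) and ILMN_1712122 (-1.40) were about as large as reported, with SEs of 0.65 and 0.51. The changes of 6 of the 11 falling probes were over 1.5 times larger there (RAD54L -4.64, BARD1 -2.62). Without background correction those of 7 of the 11 were over 1.5 times smaller, among them BLM (-1.42), ILMN_1712122 (-0.60) and ILMN_1769758 (-0.30), and all 11 still passed. RAD54L had a larger change than FANCA without background correction, with an offset of 50, with array weights and with the step. The cause was not tested. The count of curved courses, 2 as reported, was 1 with cyclic loess, 1 with no filter and 1 with detection on all arrays, and 0 to 2 with an array left out. Between 3 and 6 probes were lower at 36 to 45 h than at 24 to 33 h with an array left out. BRCA1 ILMN_1771065 ranged from -0.4045 to 0.0453 and reversed without the 33 h array (0.0404) and the 45 h array (0.0453). The median linear change of all probes was between 0.00 and 0.05 over the scalings. No paired analysis was possible because no time point had more than 1 array, each numbered replicate 1 in the labels. Probes near background, such as those of BRCA2 and the dim probes of BRCA1, BRIP1, FANCA and FANCD2, limit what can be said of small changes.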
